A study of Mus musculus with 2 samples.

Results

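Granzymes C, D, E, F and G, encoded by Gzmc, Gzmd, Gzme, Gzmf and Gzmg, are 5 of the 32285 genes counted in these libraries and 5 of the 10 granzyme genes among them. They were chosen by symbol from a comparison of these same data, with their levels in the NK-depleted and the control library already known. The differences between the libraries given here are therefore a description and carry no test. Values were read in 15065 of 17977 barcodes, those with at least 500 detected genes, a mitochondrial share of UMIs under 10%, and at least 1 UMI each of a Cd3 gene (Cd3d, Cd3e or Cd3g) and a Cd8 gene (Cd8a or Cd8b1). A UMI is a molecular identifier that counts 1 captured mRNA molecule.

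Granzymes are serine proteases that cytotoxic lymphocytes store in granules and release, with the pore protein perforin, onto target cells. Granzyme B, the best studied member of the chromosome 14 cluster, is induced early in activated CD8 T cells. Granzymes C to G are rodent genes of the same cluster that appear in strongly stimulated cytotoxic cells, interleukin-2 being a known inducer, and their substrates are less well defined. The partner genes followed here are Havcr2, which encodes the inhibitory receptor TIM-3 of activated and exhausted T cells, Mki67, a marker of dividing cells, and Il2ra, which encodes the alpha chain of the interleukin-2 receptor.

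The libraries hold live CD8+ T cells sorted from tumours of MC38, a mouse colon carcinoma line, in WT mice 9 days after implantation. For the control mice the labels name PBS as treatment, although the library name has the abbreviation Iso; for the NK-depleted mice they name a-NK1.1 antibody. An antibody to NK1.1 can bind any cell that carries the antigen, NK1.1+ T cells included. There was 1 library per group, made with 10x 5′ chemistry, and how many mice each represents is not stated in the sources used here. No difference between the libraries has a replicate check, and every interval below is a 95% interval for counting error only.

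The control library gave 6901 CD8 T cells of 7866 barcodes, with 106462391 UMIs and a median of 11444 UMIs per cell. The NK-depleted library gave 8164 of 10111 barcodes, with 125332343 UMIs and a median of 12289.5. Median mitochondrial shares were 2.27% and 2.80%. The 2 libraries shared 391 barcodes, of which 26 passed the criteria in both. Cd3d, Cd3e and Cd3g lay between 548 and 1328 CPM (UMIs per 1000000 UMIs of the cells kept), and Cd4 at 0.432 and 0.207 CPM. The NK cell gene Ncr1 had 18 UMIs in the control and 3 in the NK-depleted cells, and the 8 markers of NK or innate lymphoid cells summed to 193 and 191 CPM. Of that sum, Itga1 gave 90.44 and 72.85 CPM and Fcer1g 41.74 and 64.25 CPM. Markers of γδ T cells summed to 16.7 and 26.6 CPM, with Trdc among them at 2.01 and 5.49 CPM. Of 7 markers of mast cells and basophils, which express other genes of the same cluster, Fcer1a and Prss34 were at 0 and the sum was 10.6 and 8.83 CPM. Nearly all of that sum was Kit, at 10.45 and 8.465 CPM. At the edge of the criteria, barcodes with a single UMI of the Cd3 or the Cd8 genes held 580 CPM (control) and 353 CPM (NK-depleted) of the summed granzymes C to G, and barcodes lacking one of these gene sets held 1843 and 409 CPM.

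The 5 genes lie on the minus strand of chromosome 14 (GRCm38, GENCODE M21) within chr14:56117626-56234656. In order of position they are Gzme (chr14:56117626-56120625), Gzmd (chr14:56129556-56132608), Gzmg (chr14:56156582-56159579), Gzmf (chr14:56205263-56211417) and Gzmc (chr14:56231441-56234656). Gzmn lies between Gzmg and Gzmf, and Gzmb follows Gzmc at chr14:56258838-56262260. Their transcripts are 894 to 964 bases long. Gzmd and Gzme were the closest pair, with 90.4% identical bases, Gzmc matched the other 4 at 69.9% to 71.4%, and Gzmb matched the 5 at 48.1% to 49.9%. Of all 91-base windows of each transcript, 1.95% in Gzmd, 0.726% in Gzme and 1.34% in Gzmg occurred unchanged in another gene, and none in Gzmc or Gzmf. How UMIs from those windows were assigned is not stated in the sources used here, so the counts of Gzmd, Gzme and Gzmg are uncertain by such UMIs. Windows were counted evenly along each transcript, while UMIs were read from the 5′ end. These percentages are therefore not shares of UMIs.

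Gzmd and Gzme were also the closest pair upstream of the genes, while the order of other pairs differed. In the 250 bases before the RefSeq start of each gene (build GRCm38.p6; 1 window found for each of the 5), Gzmd and Gzme were 94.8% identical and Gzmf and Gzmg 82.7%. Gzmc matched Gzmd at 81.3% and Gzme at 81.8% there, above the 75.4% of Gzme with Gzmf, and Gzmb matched the 5 at 47.3% to 52.4%. One stretch of 76 bases is shown because it has the same length in all 5 genes and carries a site at which they differ. It is printed 5′ to 3′ on the minus strand. The left capitals mark TGTGGT, the letters read by RUNX factors. The right capitals mark the 8 bases at the place of TGACGTCA, the palindrome read by CREB and ATF factors.
Gzmc, chr14:56234701-56234776: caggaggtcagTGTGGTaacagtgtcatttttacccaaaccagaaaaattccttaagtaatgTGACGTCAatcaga
Gzmd, chr14:56132641-56132716: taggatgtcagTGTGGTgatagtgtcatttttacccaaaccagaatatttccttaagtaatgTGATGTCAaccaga
Gzme, chr14:56120674-56120749: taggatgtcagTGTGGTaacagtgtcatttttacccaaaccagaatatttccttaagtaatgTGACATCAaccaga
Gzmf, chr14:56211476-56211551: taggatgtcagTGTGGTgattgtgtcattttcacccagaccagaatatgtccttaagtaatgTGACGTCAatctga
Gzmg, chr14:56159643-56159718: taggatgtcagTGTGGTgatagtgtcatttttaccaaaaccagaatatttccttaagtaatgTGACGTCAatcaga

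Gzmc, Gzmf and Gzmg held TGACGTCA, while Gzmd had 1 difference from it, C4T, and Gzme had 1, G5A, counted from 1 at the palindrome's 5′ end. TGACGTCA, which reads the same on both strands, was present in 1.55% of the 32851 upstream windows of all genes. TGTGGT, searched on both strands, was found 2 times in each of the 5 windows and in Gzmb, and in 14% of all windows. The AP-1 letters TGANTCA (6.75% of all windows) and the STAT letters TTCNNNGAA (7.02%) were in none of the 5 windows, and Gzmb held the AP-1 letters 1 time. GGAAA, read by NFAT factors, was found 1 time in each of Gzmd, Gzme, Gzmf and Gzmg, not in Gzmc, and in 55.6% of all windows. These matches are letters in a window, and binding was not measured.

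All 5 genes were higher in the NK-depleted library. Gzmf, the most abundant of them, went from 372 CPM in control cells to 1542 CPM in NK-depleted cells, a ratio of 4.15 (4.10 to 4.19). Gzmc, whose product triggers a cell death that does not need caspases, went from 101 to 426 CPM, a ratio of 4.20 (4.11 to 4.29). Gzmd went from 42.6 to 126 CPM (ratio 2.96, 2.86 to 3.06) and its closest relative Gzme from 35.1 to 85.4 CPM (ratio 2.43, 2.34 to 2.53). The neighbouring pair thus had the smaller ratios of the 5. Gzmg was rare, with 70 UMIs (0.658 CPM) in the control and 1426 UMIs (11.4 CPM) in the NK-depleted cells, a ratio of 17.3 (13.6 to 22.3). The 3 genes with TGACGTCA upstream were the 3 with the larger ratios. Whether that site bears on the level was not tested.

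**Figure D1:**
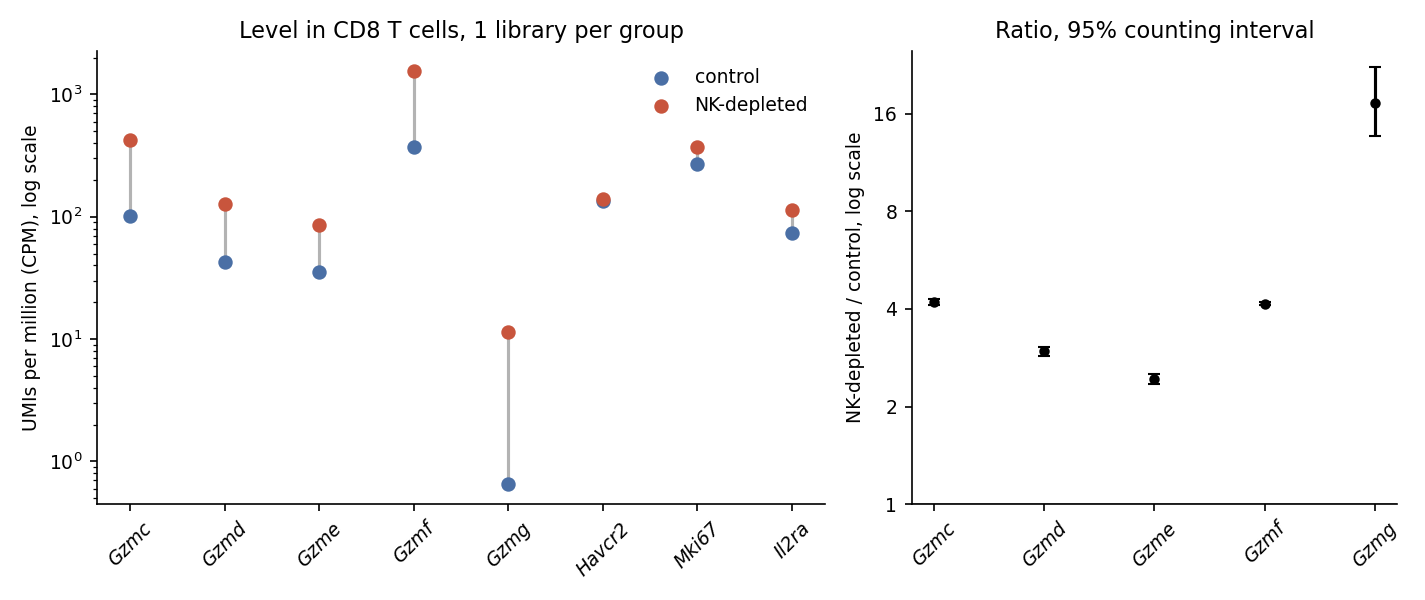
Left, CPM of the 5 granzymes and of the partner genes Havcr2, Mki67 and Il2ra in the control (blue) and NK-depleted (red) CD8 T cells, on a log scale, with 1 point per library. Right, the ratio of NK-depleted to control on a log scale with its 95% counting interval. Gzmg has the lowest level and the ratio of 17.3, and Gzmd and Gzme lie below Gzmc and Gzmf.

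Summed, the 5 genes made up 552 CPM of control and 2191 CPM of NK-depleted cells, a ratio of 3.97 (3.94 to 4.01). Of the 5, 4 had a mean of at least 10 CPM over the libraries, Gzmg falling below at 6.02 CPM, and all 4 were at least 1.5-fold higher. This was so of 0.954% of the 7446 genes with that mean, a share that the choice of these genes makes uninformative here. By size of the ratio Gzmc ranked 1, Gzmf 2, Gzmd 7 and Gzme 11 among those genes. For comparison, Havcr2 stood at 134 and 140 CPM, Mki67 at 269 and 372 CPM, and Il2ra at 74.0 and 114 CPM.

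The make-up of the sum was similar in both libraries. Gzmf gave 67.4% of its UMIs in the control and 70.4% in the NK-depleted cells, and Gzmc 18.4% and 19.4%. The shares of Gzmd (7.73% and 5.76%) and Gzme (6.36% and 3.90%) were smaller in the NK-depleted cells, and that of Gzmg went from 0.119% to 0.519%. UMIs count molecules from their 5′ end and were not divided by length, and the 5 transcripts differ little in length.

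The other genes of the cytotoxic granule did not share the size of this difference. Of 20 genes listed, 18 had a mean of at least 10 CPM. At least 25% higher were 2 of the 18, and 5 were at 80% of the control level or less. Of all 7446 genes 5.88% were higher and 11.4% lower by that measure, and the list's median log2 ratio was -0.15 beside -0.06 for all genes. The higher genes were Gzma, from 222 to 314 CPM, and Gzmb, from 2105 to 2811 CPM (ratio 1.34). Prf1, which encodes perforin, stood at 352 and 410 CPM. The lower genes were Gzmk, which marks less differentiated effector cells, at 87.9 and 34.2 CPM, Ctsl at 15.7 and 6.72 CPM, Stx11 at 31.7 and 22.6 CPM, Ctsc, whose product activates granzymes, at 64.5 and 49.2 CPM, and Fasl at 153 and 122 CPM.

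Genes of the interleukin-2 receptor and STAT5 pathway formed a list of 20, with 18 at 10 CPM or more. Of the 18, 2 were at least 25% higher and 4 were at 80% of the control level or less, beside 5.88% and 11.4% of all genes. The higher genes were Il2ra (ratio 1.54) and the survival gene Bcl2 (265 and 356 CPM). The lower genes were Il15ra (20.6 and 13.7 CPM), Socs3 (51.8 and 37.2 CPM), Prdm1 (34.5 and 25.8 CPM) and Stat5b (49.1 and 37.8 CPM). The median log2 ratio of the list was -0.12, beside -0.06 for all genes. Cish, a target gene of STAT5, stood at 134 and 148 CPM.

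Of the 10 neighbours listed in the chymase and granzyme cluster, Gzmb alone had a mean of 10 CPM. Gzmn, which sits between Gzmg and Gzmf, had 0 UMIs in the control and 2 in the NK-depleted cells. A count of 0 allows up to 0.0282 CPM in the control. The mast cell and neutrophil proteases Ctsg, Mcpt1 and Mcpt9 were at 0 in both libraries, and Mcpt8, a basophil gene, had 15 and 39 UMIs.

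Detection in single cells was compared at equal depth, each cell being thinned at random to 5500 UMIs. Shallower cells were left out, 655 in the control and 780 in the NK-depleted library, and 6246 and 7384 cells remained. At least 1 UMI of the 5 genes was found in 20.1% of control cells (19.1% to 21.1%) and 64.2% of NK-depleted cells (63.1% to 65.3%), a difference of 44.1 points (42.6 to 45.6). Without thinning the shares were 28.2% and 81.6%. Per gene, the thinned shares were 13.4% and 50.2% for Gzmf, 9.16% and 32.3% for Gzmc, 3.47% and 11.8% for Gzmd, 3.55% and 10.1% for Gzme, and 0.24% and 1.91% for Gzmg.

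Much of that difference lay in cells with 1 or 2 UMIs. CD8 T cells with a UMI each of Ccr7, Lef1 and Tcf7, genes of naive and central memory cells, and none of Mki67 or Top2a served as cells that should lack these granzymes. There were 431 in the control and 462 in the NK-depleted library, with medians of 11854 and 9942.5 UMIs. They had at least 1 granzyme C to G UMI in 7.38% and 49.1% of cells, but 10 or more in 0.476% and 1.58%. Their summed level was 46.6 and 288 CPM, with 26.2% and 15.5% of these UMIs in a single cell of each library. Free RNA caught with a cell gives such UMIs, and its part in the shares at 1 UMI was not tested. At 10 or more UMIs the shares over all cells were 5.06% (4.53% to 5.63%) in the control and 18.2% (17.3% to 19.1%) in the NK-depleted library, and at 100 or more they were 0.256% and 2.22%.

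**Figure D2:**
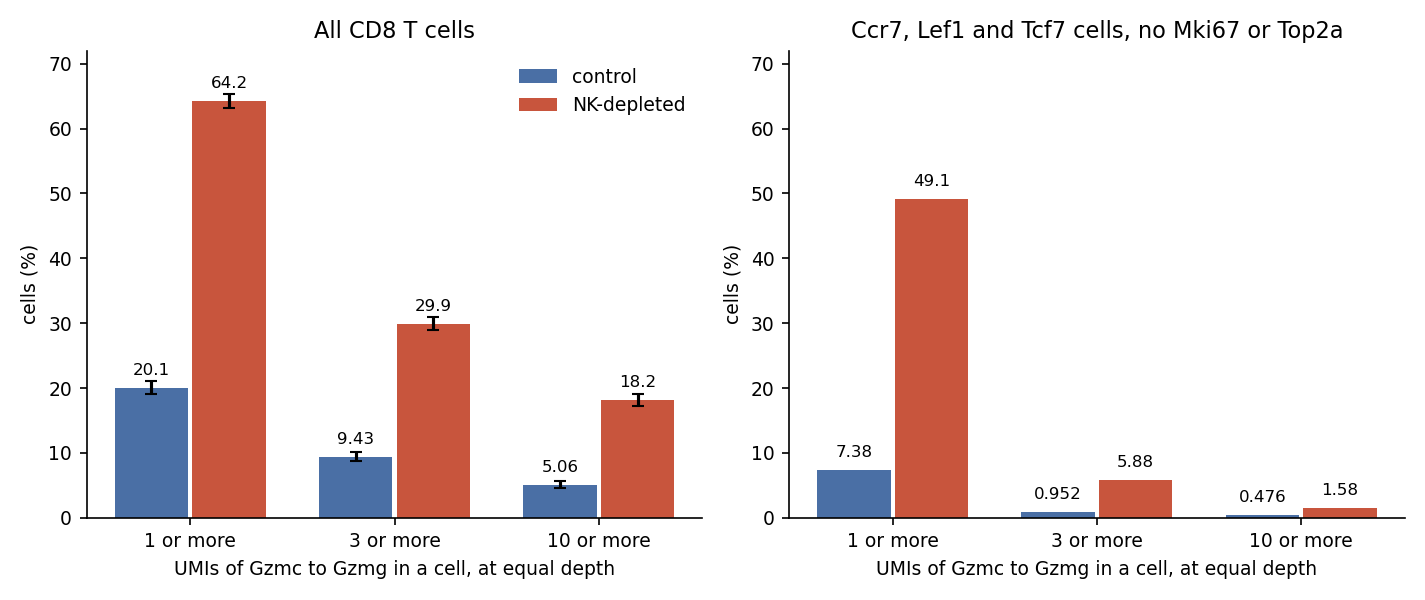
Percentage of cells with at least 1, 3 or 10 UMIs of Gzmc to Gzmg at 5500 UMIs per cell, in the control (blue) and NK-depleted (red) library. Left, all CD8 T cells with exact 95% binomial intervals; right, cells with Ccr7, Lef1 and Tcf7 and no Mki67 or Top2a. At 1 UMI or more the NK-depleted bar reaches 49.1% in the right panel, and at 10 or more it is 18.2% on the left and 1.58% on the right.

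Expression was concentrated in few cells. In the control, the 5% of cells with the most granzyme C to G UMIs held 83.2% of them, and in the NK-depleted library 56.1%. The top 1% held 43.1% and 20.7%. The Gini coefficient, which is 0 for an even spread over cells and approaches 1 when a single cell holds everything, was 0.946 and 0.849. Gzmb was spread much more evenly, at 0.585 and 0.587. The highest cell held 1557 Gzmf UMIs in the control and 2065 in the NK-depleted library, before thinning.

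Cells with 10 or more UMIs of the 5 genes held more UMIs in all than cells with none. Their median depth before thinning was 23069 against 11614 UMIs in the control and 18141 against 12534 in the NK-depleted library. Mki67 or Top2a was found in 60.8% of them against 33.6% in the control, and in 65.4% against 44.5% in the NK-depleted library. Tcf7, a gene of stem-like T cells, was found in 6.01% against 23.1% and in 3.87% against 29.7%. A Trdc UMI was found in 4 of 1343 such NK-depleted cells and in 0 of 316 control cells, which allows a share of up to 0.949%.

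The members were found together in the same cells, Gzmd and Gzme most closely. Across cells at equal depth, on log2(counts per 10000 + 1), Pearson's r of Gzmd with Gzme was 0.77 in the control (6246 cells) and 0.73 in the NK-depleted library (7384 cells). It was 0.48 and 0.53 for Gzmc with Gzmf, 0.40 and 0.45 for Gzmd with Gzmf, 0.39 and 0.41 for Gzme with Gzmf, 0.34 and 0.41 for Gzmc with Gzmd, and 0.35 and 0.39 for Gzmc with Gzme. Cells of each correlation share a library and a depth, and for Gzmd and Gzme a part of their sequence. Of control cells with Gzmd, 60.8% also had Gzme, against 1.49% of cells without Gzmd. In the NK-depleted library these shares were 50.6% and 4.70%. Gzmg was found mostly where the others were: 73.3% of its 15 control cells and 84.4% of its 141 NK-depleted cells also had Gzmf. All 5 genes were found in 6 control cells and 76 NK-depleted cells, 0.0961% and 1.03% of cells.

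Sorted by their Gzmf UMIs, cells of the 2 libraries had Gzmd and Gzme in similar shares where Gzmf was at 3 to 99. Gzmd was found in 13.8% of control and 15.1% of NK-depleted cells with 3 to 9 Gzmf UMIs, in 22.9% and 29% at 10 to 29, and in 47.2% and 46.5% at 30 to 99. Gzme was found in 14.4% and 11.3%, 26.1% and 25.2%, and 45.8% and 40.7% of the same cells. For both genes the counting intervals of the libraries overlapped in each of these bands. At 100 or more, Gzmd was found in 100% of 10 control cells and 76.1% of 109 NK-depleted cells, and Gzme in 100% and 71.6%, again with overlapping intervals. Gzmc was more frequent in the NK-depleted cells at 3 to 9 (34.6% and 50.3%) and at 10 to 29 (49.7% and 66.6%), where the intervals did not overlap. Below 3 the libraries differed: NK-depleted cells with 1 to 2 Gzmf UMIs had Gzmc in 23.7%, close to the 21.6% of those with none, while in the control these shares were 16% and 5.54%. There were 2098 NK-depleted and 407 control cells with 1 to 2 Gzmf UMIs.

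**Figure D3:**
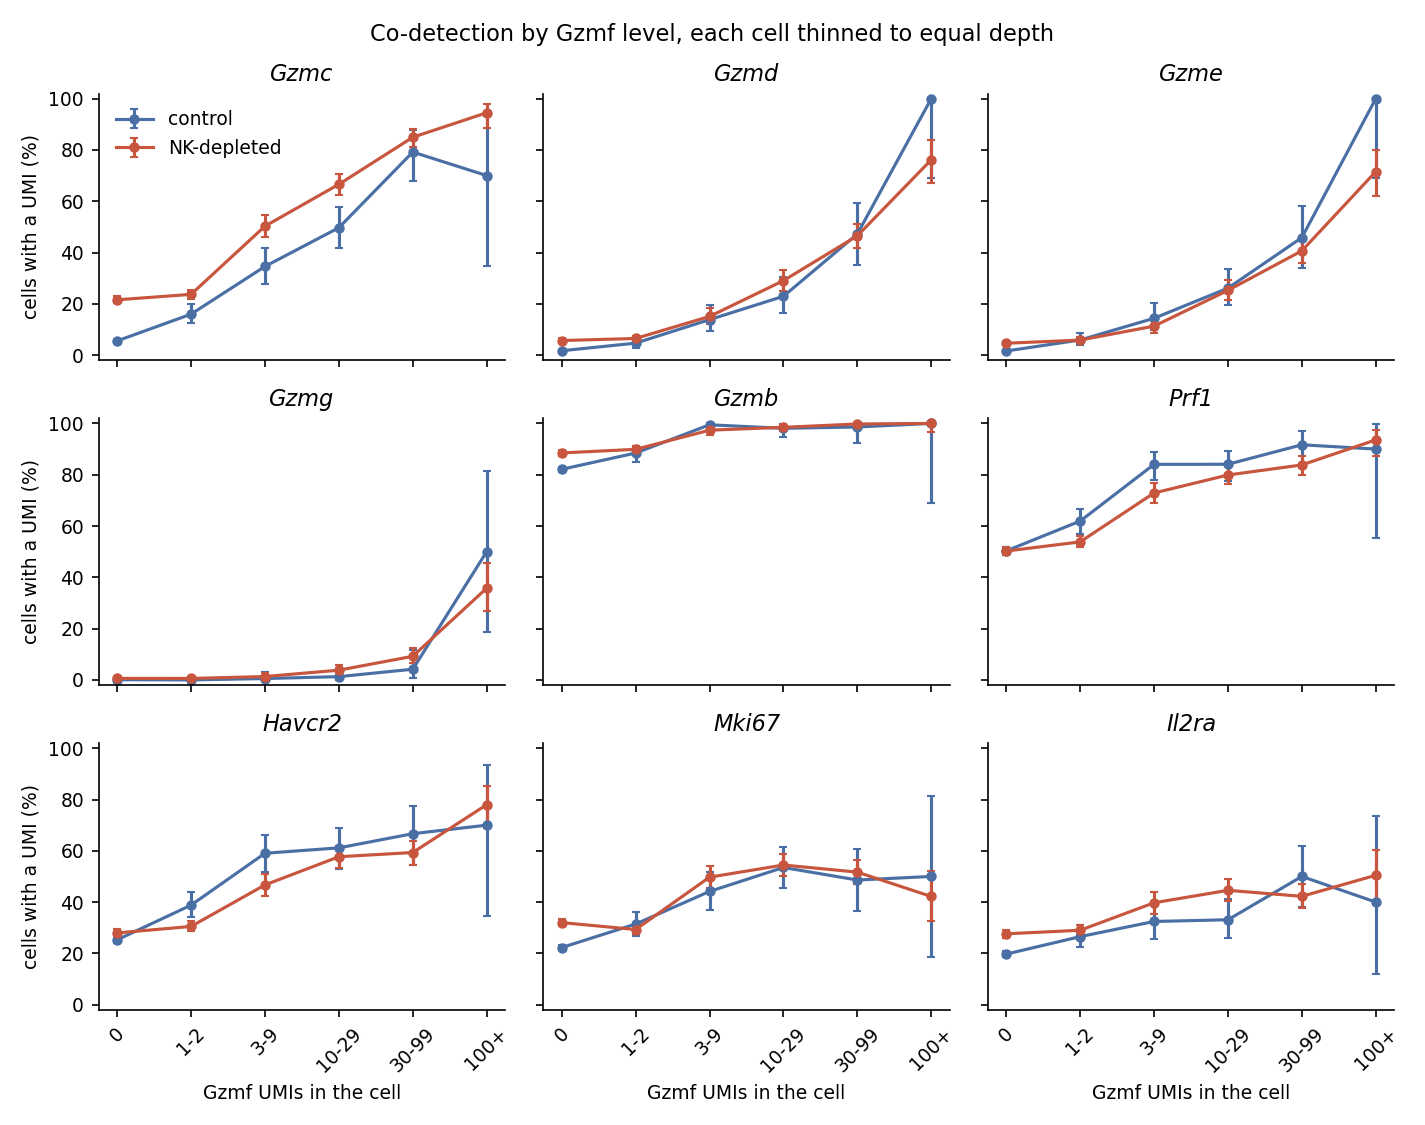
Percentage of cells with a UMI of each named gene against the number of Gzmf UMIs in the cell, at 5500 UMIs per cell, with exact 95% binomial intervals; control in blue, NK-depleted in red. Gzmd and Gzme rise with Gzmf in both libraries, with overlapping intervals from 3 Gzmf UMIs up, while Mki67 lies between 42.2% and 54.5% in all of those bands. The last band holds 10 control and 109 NK-depleted cells.

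Of the 3 partner genes, Havcr2 went with the largest difference in granzymes C to G. In the control, cells with a Havcr2 UMI held 855 CPM of the summed genes and cells without it 199 CPM, a ratio of 4.31 (4.16 to 4.46). NK-depleted cells with and without it held 3393 and 1058 CPM, a ratio of 3.21 (3.16 to 3.25). The ratio with over without Mki67 was 2.99 (775 and 259 CPM) and 1.66 (2518 and 1515 CPM). With over without Il2ra it was 2.52 (736 and 292 CPM) and 1.80 (2689 and 1497 CPM). Each partner's ratio was thus smaller in the NK-depleted library, in which cells without the partner also stood at 1058 CPM or more. The part of free RNA in the level of cells without a partner was not tested. Gzmc, Gzmd, Gzme and Gzmf were each at least 1.5-fold higher with every partner in both libraries. Among all genes at 10 CPM or more this was so for Havcr2 of 4.92% in the control and 4.61% in the NK-depleted library, for Mki67 of 6.73% and 8.63%, and for Il2ra of 2.30% and 2.41%.

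By summed UMIs, the individual members leaned differently on Havcr2 in the 2 libraries. Gzmf had the largest ratio of the 4 in the control, 4.99, and 3.25 in the NK-depleted library. Gzmd and Gzme went the other way, from 2.83 to 3.80 and from 2.75 to 4.11. The shares of cells with a UMI showed no such rise in their ratio. With and without Havcr2, Gzmd was found in 5.93% and 2.49% of control cells, and in 18.5% and 8.14% of NK-depleted cells. For Gzme these shares were 6.43% and 2.40%, and 16.85% and 6.48%. The control sums rest on few cells: the top 1% held 74.8% of Gzmd and 67.75% of Gzme UMIs. In cells without Havcr2, Gzmf went from 123 to 758 CPM between the libraries, while Gzme went from 17.3 to 32.4 CPM.

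The 8 combinations of the 3 partners were all higher in the NK-depleted library. Cells with none of them held 99.4 CPM when control and 682 CPM when NK-depleted, a ratio of 6.86 (6.51 to 7.23). The Ccr7, Lef1 and Tcf7 cells described above held 46.6 and 288 CPM before thinning. How much of the level in cells with no partner is free RNA was not tested. Cells with all 3 held 1604 and 3860 CPM, a ratio of 2.41 (2.29 to 2.53). In the control, levels rose with the number of partners detected. Among cells with 1 partner, Havcr2 alone went in both libraries with the highest level, 564 and 2781 CPM. In the NK-depleted library, cells with Havcr2 alone also exceeded cells with Mki67 and Il2ra but no Havcr2, 2781 against 2084 CPM, while in the control these groups stood at 564 and 726 CPM.

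**Figure D4:**
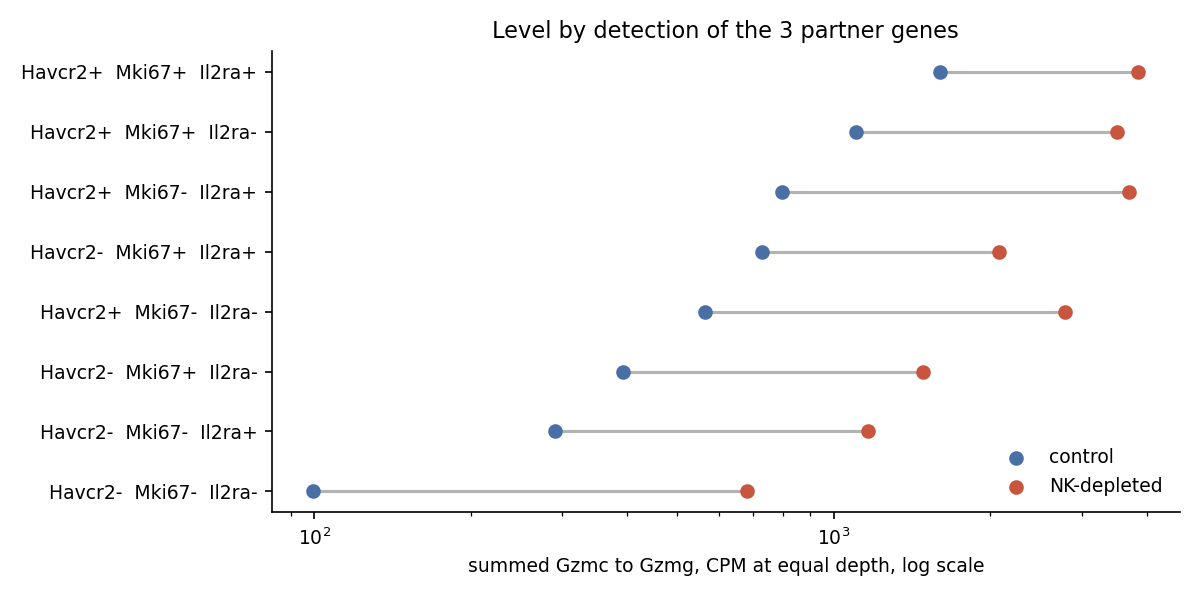
Summed CPM of Gzmc to Gzmg, at equal depth and on a log scale, in cells with (+) or without (-) a UMI of Havcr2, Mki67 and Il2ra; control in blue, NK-depleted in red, 1 value per library. Every NK-depleted point lies right of its control point, and the gap is widest for cells with none of the 3 partners.

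Cells with all 3 partners were 3.55% of the control and 7.72% of the NK-depleted cells, and cells with none 48.3% and 35.6%. Weighting the control level of each combination by its NK-depleted share gave 498 CPM, 1.29 times the 386 CPM measured in the thinned control cells. The thinned NK-depleted cells held 1870 CPM, 3.76 times that weighted value. In cells with a Mki67 UMI the ratio of NK-depleted to control was 3.25 (3.16 to 3.33), and in cells without it 5.85 (5.70 to 6.0). The part of free RNA in these ratios was not tested. Gzmc, Gzmd, Gzme and Gzmf all passed 1.5-fold in both groups of cells, where 1.30% and 1.16% of all genes did.

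The level of the members differed widely between clusters made from both libraries without any granzyme gene. Of 16 clusters, 10 held at least 100 cells of each library, and the sum was higher in the NK-depleted library in all 10, by 2.47 to 10.1 times. The high clusters included cluster 0, at 859 and 4279 CPM, and cluster 4, at 1098 and 3375 CPM. The cycling-like clusters were also high: cluster 1, led by histone genes (1017 and 2506 CPM), and cluster 10, led by Cdc20 and Ccnb2 (1094 and 3190 CPM). Cluster 0 is led by Csf1, Tnfrsf4 and Sdcbp2, with Havcr2 and Lag3 further down, and had 4 of 11 terminally exhausted markers raised. Cluster 4 is led by Shisal2b, Spp1, Rhox5 and Ung, had 3 of 12 cycling markers raised and was not named. Cluster 12, which has few UMIs and is led by Lars2, stood at 1430 and 4681 CPM and was not named. Cluster 0 held 17.4% of control and 13.7% of NK-depleted cells, cluster 1 held 9.43% and 15.3%, cluster 4 held 4.38% and 11.4%, and cluster 10 held 3.25% and 5.06%.

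The low clusters were the naive or central memory-like cluster 5 (12.1 and 122 CPM), the interferon-responsive-like cluster 2 (20.1 and 193 CPM) and cluster 9, led by S1pr1 and Klf3 (13.9 and 140 CPM). In the NK-depleted library all 3 lay below the 288 CPM of the Ccr7, Lef1 and Tcf7 cells described above. The latter include cells with 10 or more such UMIs, so 288 CPM is no measure of free RNA alone. How much of the 3 clusters' levels is free RNA was not tested, so their ratios are not shown to be above background. Cluster 6, led by Actn2, Itga4 and Car2 with Ccl5 and Cxcr3 further down, was as low, at 19.1 CPM in 1055 control cells and 143 CPM in 87 NK-depleted cells. Cluster 2 held 15.9% of control and 3.11% of NK-depleted cells, and cluster 6 held 15.3% and 1.07%. Cluster 14, led by the activation genes Il2, Xcl1, Ccl4 and Ifng, stood at 73.2 and 194 CPM in 78 and 75 cells. Clusters 6 and 14 also lay below 288 CPM in the NK-depleted library. Before thinning, no cell of cluster 5 held 10 or more of these UMIs in either library, against 15.1% and 36.6% in cluster 0. Over all cells the share before thinning was 8.69% and 24.7%. Cluster 0 was also deeper, with medians of 13910.5 and 11830 UMIs against 10196 and 9160 in cluster 5. Among the 10 clusters, ratios above 9 were those of clusters 2, 5 and 9. Clusters 13 and 15, led by dendritic cell genes such as H2-Aa, still met the criteria for CD8 T cells. Cluster 13 had 117 control and 66 NK-depleted cells at 129 and 842 CPM, and cluster 15 had 48 and 41 cells at 650 and 1320 CPM.

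**Figure D5:**
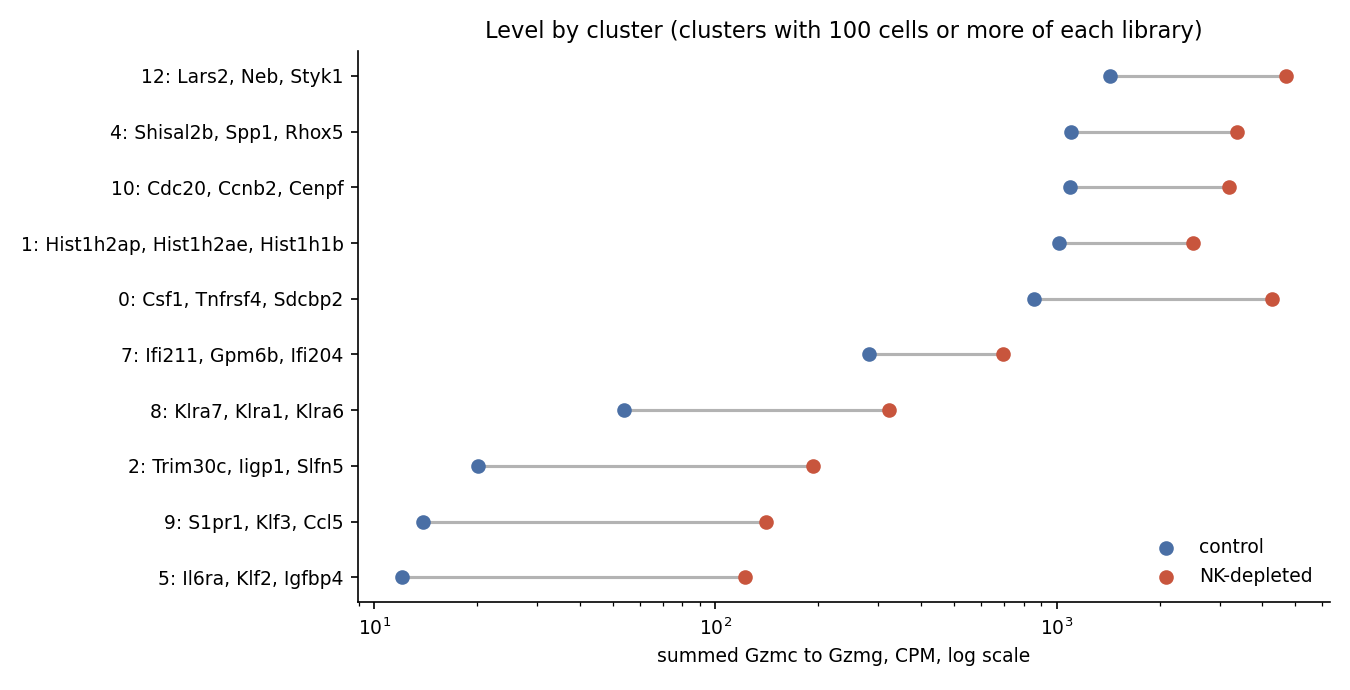
Summed CPM of Gzmc to Gzmg on a log scale in the 10 clusters with at least 100 cells of each library, named by number and 3 leading genes; control in blue, NK-depleted in red, 1 value per library. The upper 5 clusters lie at 859 CPM or more in both libraries and the lower 3 at 193 CPM or less.

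The balance of members differed between clusters. In cluster 8, led by Klra7, Klra1 and Fcer1g, Gzmc stood at 40.1 and 151 CPM and Gzmf at 12.8 and 158 CPM. Gzmc thus exceeded Gzmf there in the control, which was not so of the members summed over all cells. The 256 control cells of cluster 8 held 168 UMIs of the 5 genes in all. Before thinning, 1.17% of them held 10 or more, so this order rests on few UMIs. The Ccr7, Lef1 and Tcf7 cells held 36.15 and 233.4 CPM of Gzmf, above cluster 8 in both libraries, and 3.419 and 31.5 CPM of Gzmc, below it. Cluster 11, led by Upp1, Ecm1 and including Ccr2 and Ifitm2, held 0.869% of control and 4.95% of NK-depleted cells. Its Gzmc level was 12.1 CPM in 60 control cells and 546 CPM in 404 NK-depleted cells, and its Gzmg level of 33.1 CPM in the NK-depleted library was the highest of the 16 clusters. The 60 control cells held 391 UMIs of the 5 genes in all, at 590 CPM, so their Gzmc level rests on few UMIs. A cluster mostly of 1 library cannot be told apart from a property of that library.

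The genes whose level across cells was most like the summed members were Irf8, Prf1, Ifitm2, Ifitm1, S100a4, Lgals1, Nrgn, Myo10, Gapdh, Capg, Il1r2 and Havcr2, among 6904 genes found in at least 5% of the thinned cells of both libraries. Pearson's r was 0.30 and 0.31 for Irf8, a transcription factor of activated T cells, 0.29 and 0.34 for Prf1, and 0.27 and 0.41 for Ifitm1, a gene induced by interferons. The median over all genes was 0.00 and 0.01. Havcr2 stood at 0.23 and 0.26, Mki67 at 0.17 and 0.19, and Il2ra at 0.14 and 0.16. Gzmb, the neighbour of Gzmc, reached 0.17 in the control and 0.32 in the NK-depleted library. Gzma (-0.02 and 0.03) and Gzmk (-0.13 and -0.03) did not follow the members. The genes least like them were Malat1, Emb, Gimap6, Arl4c, Ccl5 and H2-Q7, with Malat1 at -0.31 and -0.20 and Emb at -0.20 and -0.31. Ifitm1 and Ifitm2 were themselves higher in the NK-depleted library, at 477 and 934 CPM and at 184 and 561 CPM.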

How the data were processed

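The deposited values are raw UMI counts for each gene in each barcode, with no normalization by the authors. Per the file headers, Cell Ranger 6.1.2 produced them; mm10 and Seurat 4.0.6 are named in the submitters' processing notes. How reads matching several genes were treated is not stated in the sources used here. The members, gene lists and comparisons were chosen with earlier results of these data known.

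UMIs were summed over the CD8 T cells of each library and given as CPM; ratios have exact conditional binomial intervals and shares exact Clopper-Pearson ones (scipy 1.17.1). PCR duplicates are removed by UMIs, and intervals and floors (3 counts) cover counting error only. No test across samples exists, each group being 1 library. Cells were thinned to the lower of the libraries' 10th percentiles of UMIs, rounded down. Doublets were not removed; no caller was run, and an alternative leaves out the 8% of cells with the most UMIs. Clusters used scanpy 1.11.5 and leidenalg 0.10.2 (2000 variable genes, 30 components, 15 neighbours, resolution 1.0), and were named from fixed markers, 1 of which is not reported here. The ratio and interval computation was tested on simulated data. Named genes were the members, the partners, up to 8 of each list with the largest absolute log2 ratio plus Gzmb, Gzma, Gzmk and Prf1, and the 12 most and 6 least like the members; Cish, and genes read to check cell identity, were added after their values were seen. Alternatives used scaling factors from edgeR 4.0.16 (TMM) and DESeq2 1.42.0 (median of ratios), other filters, depths and thresholds. Sequences came from RefSeq upstream windows and GENCODE M21 transcripts.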

Additional observations from a re-analysis of the deposited data

Results flagged for a closer look

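Barcodes outside the criteria, which enter no comparison above, also held UMIs of granzymes C to G. In the NK-depleted library the 1947 such barcodes stood at 2530 CPM, with a median of 1013 UMIs per barcode. The CD8 T cells stood at 2191 CPM in that library and at 552 CPM in the control. The 676 of them that met every criterion except the mitochondrial limit stood at 3127 CPM, and the 120 such control barcodes at 661 CPM. Barcodes with fewer than 500 genes stood at similar levels in the libraries, 2642 CPM in 494 control and 2786 CPM in 900 NK-depleted barcodes. The 965 control barcodes outside the criteria stood at 1841 CPM, and 26.9% of their granzyme C to G UMIs came from a single barcode.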

How the results depend on the processing

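Over 112 alternatives, each a pair of a result and a setting, none turned a direction. Of them, 59 moved the value beyond the margin allowed for it and 53 did not. The latter include the median log2 ratio over clusters, whose margin was the whole range over clusters. It was 2.01 at resolution 1.0, 3.135 at 0.5 and 2.46 at 1.5. At resolution 1.5 the ratios of clusters with at least 100 cells of each library ran from 1.825 to 22.1. The log2 ratio of the summed members over all cells, 1.99, was 2.07 with TMM factors, 2.09 with median-of-ratios factors and 2.26 as a mean over cells. This ratio was 1.95 with a mitochondrial limit of 5% and 2.36 without the 8% of cells with the most UMIs. Without cells with Mki67 or Top2a it was 2.60, and with every cell thinned 2.28. After seeing the data, further alternatives were added: it was 1.91 less the level in cells with Ccr7, Lef1 and Tcf7, 1.98 without barcodes found in both libraries and 1.99 without dendritic-like clusters. The count of members at least 1.5-fold higher was 4 under each alternative and 5 with no minimum CPM. The 44.1 points between shares of cells became 53.3 without thinning, 30.4 at 2000 UMIs, 20.5 at 3 or more UMIs, 13.1 at 10 or more (added after seeing the data) and 42.1 with the 5% limit. The log2 ratio with over without Havcr2 ranged from 1.95 to 3.07 in the control and from 1.47 to 2.35 in the NK-depleted library, highest without thinning; the cause was not tested. No paired analysis was possible because each group has 1 library and the labels carry no replicate numbers, and leaving out a replicate was not possible for the same reason. Depth limits Gzmg most, with 70 control UMIs. The log2 ratio of Gzmg, 4.11, was 3.49 as a mean over cells and 3.77 with every cell thinned. Under its other 9 alternatives it lay within its counting interval.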
